A study of Mus musculus with 6 samples.

Results

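The genes described here are those of the mouse major histocompatibility complex (MHC, called H2 in the mouse) together with genes that load, accompany or switch on its products. Members were every gene whose symbol starts with H2- plus 14 named partners, each represented by its brightest probe set. That gave 52 genes of 20263 measured, 38 with an H2- symbol and all 14 partners, read by 58 probe sets in total. They were chosen by name, with earlier results of these data known. A further 12 H2- symbols of the RefSeq table had no matching probe set. Regrowing prostate was compared between 3 wild-type and 3 Gli1-/- mice aged 10 weeks. The mutants lack function of Gli1, a transcription factor of the Hedgehog pathway. All 6 mice had been castrated at 8 weeks, had received a subcutaneous testosterone pellet 2 weeks later and were sampled 3 days after that. Ventral and dorsolateral lobes of 1 mouse made up a sample, so epithelium, stroma, vessels and immune cells were read together. No source used here gives the strain, the litters or the H2 haplotype. A difference that comes with the mutation and one that comes with the background of the mutant mice cannot be told apart.

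MHC molecules display peptides on the cell surface for T cells to inspect. Class I heavy chains pair with beta-2-microglobulin (B2m) on nearly all cells and take up peptides that the TAP transporter carries into the endoplasmic reticulum. Class II molecules are made mainly by dendritic cells, macrophages and B cells, are escorted by the invariant chain Cd74, and exchange its fragment for endosomal peptides with the help of H2-DM. Interferon gamma raises both sets, class II through the coactivator Ciita and class I in part through its relative Nlrc5. MHC genes are also among the most variable between mouse strains. An array probe designed on one allele can read another allele less brightly, so that a difference in transcript amount and a difference in transcript sequence cannot be told apart from these values.

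Promoter windows of 6 members are printed because they hold letter matches to elements through which MHC genes are known to be switched on together. Windows of RefSeq on GRCm38.p6 run from 250 bases before to 50 bases after the start of transcription, and 37 of the 52 members had one. Capitals in the class II promoters H2-Eb1 and H2-Aa mark matches to ACNGATG, a core of the X box, and to GATTGG, the core of the Y box, which are known to be bound by the Rfx complex and by NF-Y.
H2-Eb1, chr17:34305617-34305916, plus strand: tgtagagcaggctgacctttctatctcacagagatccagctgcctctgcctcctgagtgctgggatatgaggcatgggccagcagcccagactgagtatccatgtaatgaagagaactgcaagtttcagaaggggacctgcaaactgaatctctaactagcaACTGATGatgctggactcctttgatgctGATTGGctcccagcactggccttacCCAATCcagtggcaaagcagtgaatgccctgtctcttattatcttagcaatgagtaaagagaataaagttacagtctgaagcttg
H2-Aa, chr17:34287774-34288073, minus strand: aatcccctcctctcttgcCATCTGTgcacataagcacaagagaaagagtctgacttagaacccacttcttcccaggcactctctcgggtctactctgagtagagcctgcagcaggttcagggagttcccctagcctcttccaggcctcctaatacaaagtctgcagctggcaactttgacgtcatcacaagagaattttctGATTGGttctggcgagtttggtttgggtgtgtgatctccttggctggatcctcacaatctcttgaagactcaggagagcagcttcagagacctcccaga

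In the class I promoters of H2-K1, H2-D1 and H2-Q10 capitals mark the enhancer A core GGGGANTCC, a site of NF-kappaB. In H2-T23 they mark TTCNNTTTC, a core of the interferon-stimulated response element.
H2-K1, chr17:34000298-34000597, minus strand: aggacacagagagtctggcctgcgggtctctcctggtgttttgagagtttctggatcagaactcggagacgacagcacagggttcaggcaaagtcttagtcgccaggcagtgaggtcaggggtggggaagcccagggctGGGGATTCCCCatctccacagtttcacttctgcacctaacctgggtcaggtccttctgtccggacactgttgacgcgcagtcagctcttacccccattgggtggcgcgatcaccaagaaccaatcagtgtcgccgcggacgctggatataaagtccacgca
H2-D1, chr17:35262844-35263143, plus strand: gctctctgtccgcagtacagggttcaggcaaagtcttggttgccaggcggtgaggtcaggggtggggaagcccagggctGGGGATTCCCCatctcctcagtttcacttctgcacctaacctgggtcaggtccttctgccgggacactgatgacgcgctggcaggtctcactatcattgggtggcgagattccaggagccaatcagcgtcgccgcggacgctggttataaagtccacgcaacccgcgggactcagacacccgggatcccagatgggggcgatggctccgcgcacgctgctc
H2-Q10, chr17:35469839-35470138, plus strand: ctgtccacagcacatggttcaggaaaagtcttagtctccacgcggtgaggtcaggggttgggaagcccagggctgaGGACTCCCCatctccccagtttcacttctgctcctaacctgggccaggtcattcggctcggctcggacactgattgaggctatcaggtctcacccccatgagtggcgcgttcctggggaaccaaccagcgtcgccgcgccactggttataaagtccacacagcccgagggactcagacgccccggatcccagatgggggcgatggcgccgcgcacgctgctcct
H2-T23, chr17:36032652-36032951, minus strand: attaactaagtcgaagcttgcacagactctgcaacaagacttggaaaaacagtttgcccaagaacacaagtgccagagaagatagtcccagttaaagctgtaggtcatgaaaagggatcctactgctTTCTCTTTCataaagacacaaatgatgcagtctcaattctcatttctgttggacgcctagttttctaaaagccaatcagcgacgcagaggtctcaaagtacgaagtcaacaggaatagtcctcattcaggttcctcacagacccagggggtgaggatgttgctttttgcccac

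Both strands were searched, and a base could belong to more than 1 match. The cores were shortened after a first search, so the shares below describe these windows and are not a test. Members were counted once per gene, 3 of them with several windows, while the shares of all windows count each window. The Y box core was present in 29 of the 37 members, against 16.1% of all 32851 promoter windows, and in 8 of 8 class II members with a window. The X box core was present in 17 of the 37, against 9.85% of all windows, and in 6 of the 8 class II members. Another 5 were H2-M10 genes, and the rest were H2-D1, H2-M3, H2-M5, H2-Q4, H2-Q6 and H2-Q7. In H2-Eb1 the X box core started at -88 and the Y box core at -60 from the start of transcription, with a further Y box core on the opposite strand at -35. In H2-Aa the Y box core started at -49, and the X box letters lay on the opposite strand at -232. That is much farther from the Y box core than in H2-Eb1, so these letters need not be the X box of H2-Aa. The X and Y letters also lay farther apart than in H2-Eb1 in other members. They started at -137 and -44 in H2-Oa, and at -214 and -72 in H2-M10.2. The same limit holds there. H2-Aa is counted among the 6 class II members with X box letters. Enhancer A letters were in 5 members, H2-K1, H2-D1, H2-Q6, H2-Q7 and H2-Q10, against 1.19% of all windows. The interferon element core was in 4, B2m, Erap1, H2-T22 and H2-T23, against 8.56% of all windows, which is close to the share among members. Other forms of the element were not searched. The printed windows of H2-K1, H2-D1 and H2-Q10 hold TTTCACTTC, which this core cannot match. A window without the core can therefore still hold an interferon element. In H2-Q10 the enhancer A letters were found on 1 strand, and in H2-K1, H2-D1 and H2-Q6 overlapping matches lay on both. H2-Ab1, H2-T24 and H2-T10 had no window in the table. A match describes letters in these windows and is not a bound site.

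Across the whole array, 4 of 20263 genes (0.0197%) passed a limma adjusted p under 0.05 in the comparison of Gli1-/- with wild type. Values below are log2 intensities, always in the order of mice 1, 2 and 3 of a group. The Gli1 probe set measured 6.28, 6.48 and 6.51 among wild-type animals against 6.34, 6.27 and 6.29 among mutants. The groups overlapped. No source used here says which part of the gene the mutation removes, so this probe set does not check the genotype labels. Sample medians lay between 6.76 and 6.95. All 7 luminal epithelium markers lay above the 25th percentile of all genes, an intensity of 5.54.

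None of the 52 members passed over all genes (0 higher and 0 lower, limma adjusted p 0.101 or more). At an unadjusted p under 0.05, 7 members were higher and 2 lower in the mutants, where 5.93% of all genes were higher and 4.58% lower at that threshold. The log2 change from wild type to Gli1-/- was positive in 36 of 52 members, with a median of 0.16, and in 48.5% of all genes, with a median of -0.005. In 9 members every mutant read above every wild-type mouse, against 8.34% of all genes. In 4 members every mutant read below, against 6.01%. The 9 were H2-T24, H2-Eb1, Cd74, Tapbp, Tap1, Tap2, H2-T3, Ciita and H2-DMa, and the 4 were H2-T10, H2-Q10, B2m and Rfxap. With mutant 1 left out the count of such members higher in the mutants was 18 (12.2% of all genes). It was also 18 without wild-type mouse 2 (11.0%), and 15 without wild-type mouse 3 (18.4%). These were the larger counts. With each mouse left out in turn the count ran from 9 to 18, and no rise is read from it. In whole lobes, more cells of a type and more RNA per cell cannot be told apart.

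**Figure D1:**
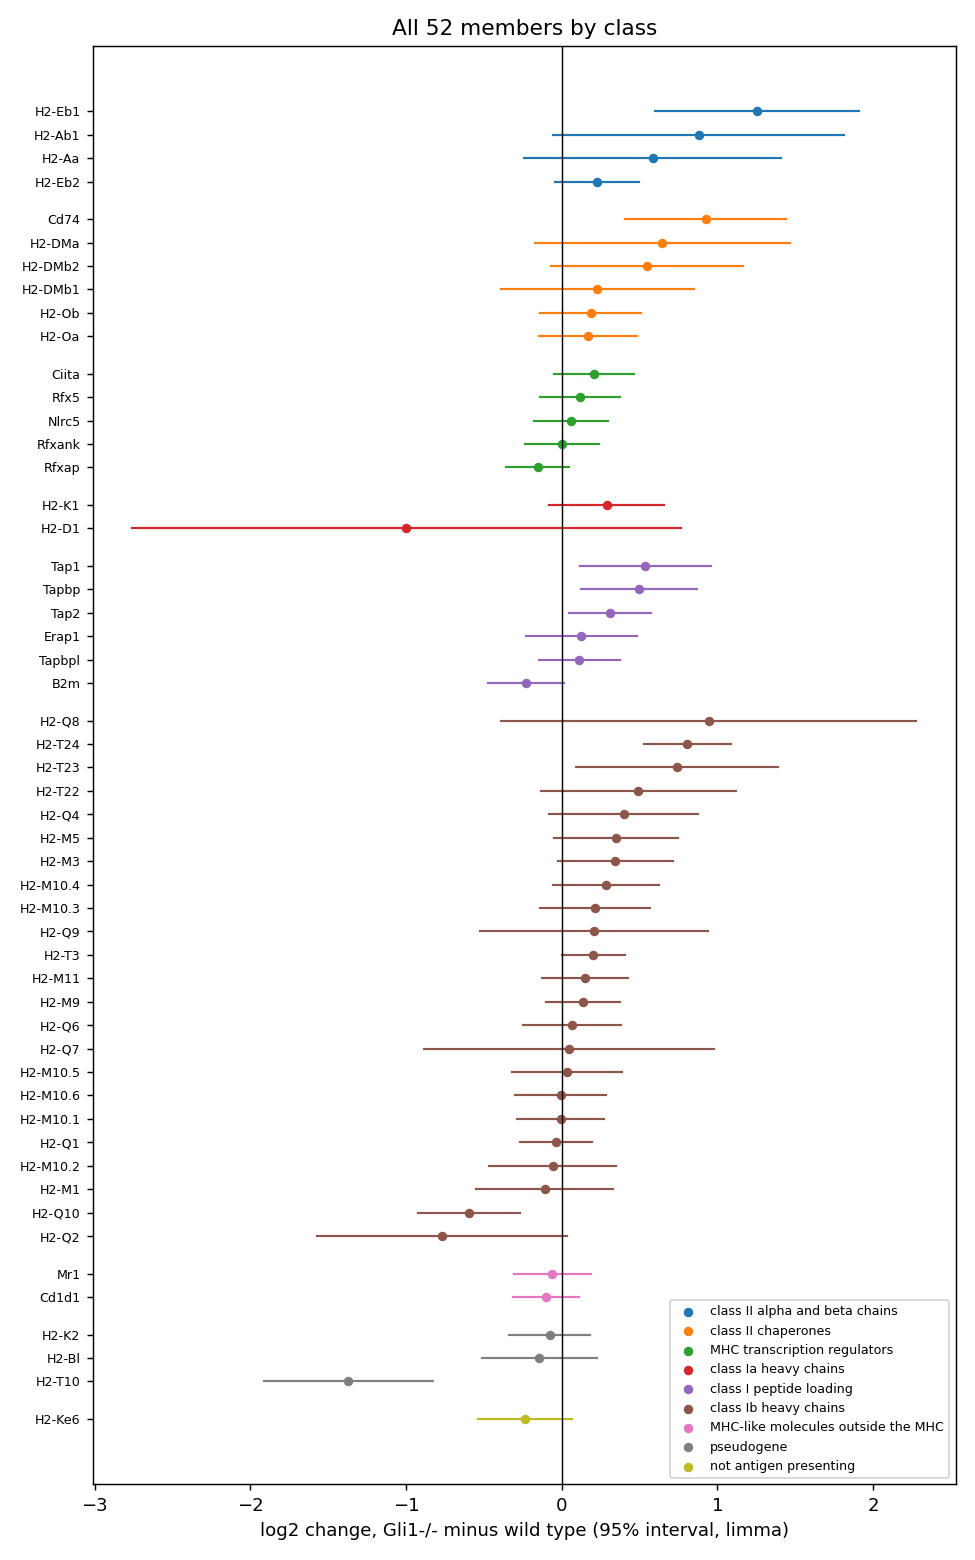
Log2 change (Gli1-/- minus wild type, x axis) of all 52 members, with points for the limma estimate and lines for its 95% interval, coloured by class. All 10 class II chain and chaperone genes lie to the right of 0, from 0.17 to 1.26, and the class Ib genes lie on both sides, from -0.77 to 0.94.

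Each of the 10 class II chains and chaperones had a positive log2 change, from 0.17 to 1.26 with a median of 0.57, and 0 of 10 passed over all genes. H2-Eb1, the beta chain of the I-E molecule, measured 8.15, 8.79 and 7.88 among wild-type animals against 9.26, 10.05 and 9.28 among mutants. Every mutant lay above every wild-type mouse. The difference was 1.26 (SE 0.28, 95% interval 0.60 to 1.91), or 2.39-fold, with a limma adjusted p of 0.221. With single mice left out it stayed between 1.00 and 1.51, and with array weights it was 0.66.

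The I-A molecule, formed by H2-Aa and H2-Ab1, showed a wider spread. H2-Ab1 measured 8.72, 9.58 and 8.73 among wild-type animals against 9.08, 10.71 and 9.88 among mutants, so mutant 1 lay within the wild-type range and mutants 2 and 3 above it. Its difference was 0.88 (SE 0.40, limma adjusted p = 0.506), 0.47 without mutant 2 and 0.31 with array weights. H2-Aa measured 9.21, 10.36 and 9.37 among wild-type animals against 9.82, 10.86 and 10.02 among mutants. Wild-type mouse 2 lay above mutants 1 and 3, and the difference of 0.58 (SE 0.36, limma adjusted p = 0.617) was 0.27 without mutant 2, 0.37 without wild-type mouse 1 and 0.94 without wild-type mouse 2. With array weights it was -0.17. The fourth chain gene measured, H2-Eb2, differed by 0.23 (SE 0.12) at levels below the 25th percentile of all genes. H2-Ea, the partner of H2-Eb1 and a transcribed pseudogene in the RefSeq annotation, had no matching probe set and was not analysed here.

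Cd74, the invariant chain that occupies the class II groove until the endosome, measured 9.84, 10.46 and 9.94 among wild-type animals against 11.03, 11.36 and 10.62 among mutants. The groups did not overlap, and the difference was 0.92 (SE 0.22, 95% interval 0.41 to 1.44), or 1.90-fold (limma adjusted p = 0.226). Both Cd74 probe sets gave 0.92, and with array weights the difference was 0.42. H2-DMa and H2-DMb1 and H2-DMb2 encode the chains of the peptide editor H2-DM. H2-DMa differed by 0.64 (SE 0.35), but 8.90 in mutant 2 stood against 7.44 and 7.53 in mutants 1 and 3, and the difference was 0.17 without mutant 2. H2-DMb2 differed by 0.55 (SE 0.27), 0.30 without mutant 2 and 0.34 without wild-type mouse 1. H2-DMb1 differed by 0.23 (SE 0.27) and changed direction, to -0.06, without mutant 2. H2-Oa and H2-Ob, which form the DM inhibitor H2-O of B cells, differed by 0.17 and 0.18 (SE 0.14 each). The H2-Oa difference was 0.07 without wild-type mouse 1 and 0.30 without wild-type mouse 3. With single mice left out that of H2-Ob lay between 0.07 and 0.28.

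**Figure D2:**
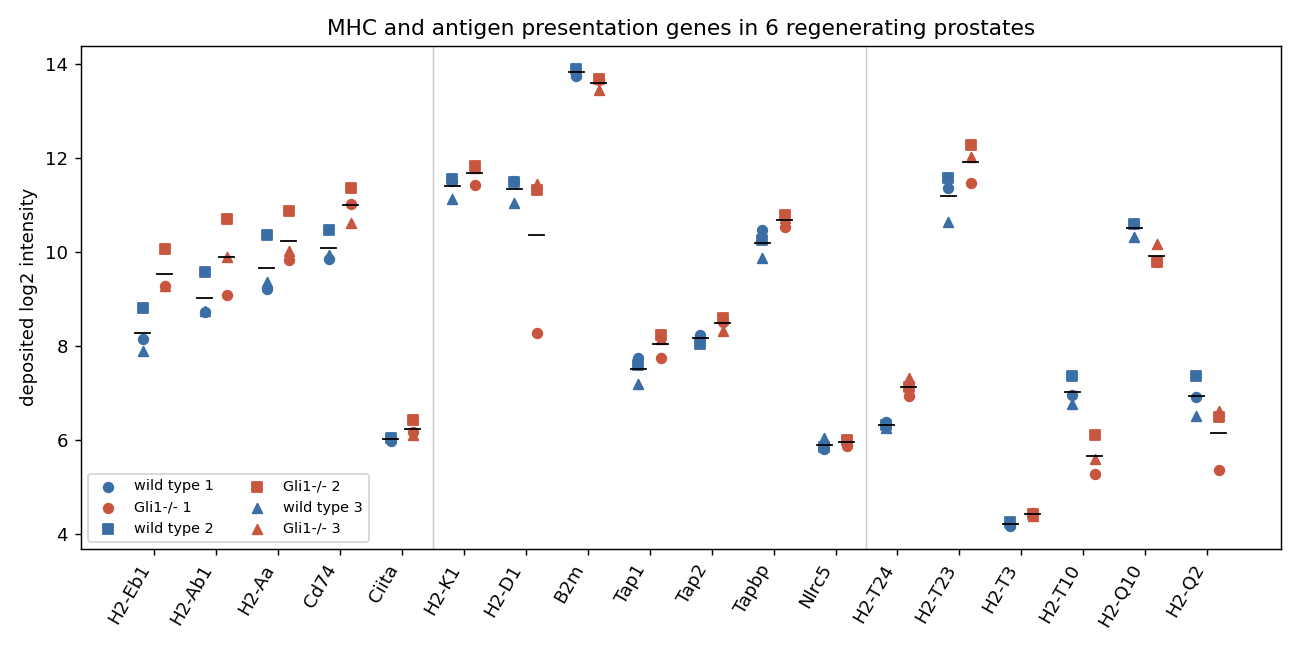
Deposited log2 intensity (y axis) of 18 members in each of 3 wild-type (blue) and 3 Gli1-/- (red) mice, with marker shapes for mouse number and short lines for group means. H2-Eb1 and Cd74 separate the groups upward, H2-T10 and H2-Q10 downward, and H2-D1 is at 8.27 in mutant 1 against 11.32 and 11.45 in the other mutants.

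The transcriptional regulators of MHC genes showed small differences. Ciita, the master coactivator of class II genes, measured 5.97, 6.03 and 6.06 among wild-type animals against 6.16, 6.42 and 6.10 among mutants, with no overlap and a difference of 0.21 (SE 0.11, limma adjusted p = 0.577) that was 0.11 without mutant 2. Nlrc5, its class I counterpart, read 5.79, 5.84 and 6.03 against 5.87, 5.99 and 5.98, a difference of 0.06 (SE 0.10, 95% interval -0.18 to 0.30, limma adjusted p = 0.907). Both groups of Nlrc5 values lay in the same range. The 3 subunits of the X box binding complex, Rfx5, Rfxap and Rfxank, differed by 0.12 (SE 0.11), -0.16 (SE 0.09) and 0.004 (SE 0.10). Rfx5 differed by 0.02 without wild-type mouse 3, and the direction of Rfxank changed with several single mice left out. For Rfxap the mutants measured 7.95 ± 0.04 and the wild type 8.11 ± 0.03 (SD, n = 3), with no overlap.

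The classical class I heavy chains shared no direction, and the H2-D1 difference rested on 1 mouse. H2-K1, which presents peptides to CD8 T cells, measured 11.50, 11.54 and 11.13 among wild-type animals against 11.41, 11.83 and 11.79 among mutants. Mutant 1 lay inside the wild-type range, and the difference was 0.29 (SE 0.16, limma adjusted p = 0.585), and 0.16 without wild-type mouse 3. H2-D1, the other classical gene on this array, measured 11.51, 11.49 and 11.03 among wild-type animals against 8.27, 11.32 and 11.45 among mutants. Mutant 1 minus the mean of the other mutants was -3.11, or 8.65-fold lower, and the other mutants overlapped with wild type. The fitted difference of -0.998 (SE 0.76, 95% interval -2.76 to 0.76, limma adjusted p = 0.704) became 0.04 without mutant 1, -1.49 without mutant 2 and -1.55 without mutant 3. The range of 3.17 among the mutants was matched or exceeded by 0.0642% of all genes. The promoter windows of H2-K1 and H2-D1 printed above share the enhancer A letters. They are reference sequence and need not be that of these mice. The part of promoter letters in these values was not tested.

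B2m, the light chain shared by class I molecules, was lower in all 3 mutants. It measured 13.75, 13.90 and 13.82 among wild-type animals against 13.65, 13.68 and 13.44 among mutants, a difference of -0.23 (SE 0.10, 95% interval -0.47 to 0.01, limma adjusted p = 0.499). With quantile normalization the difference was -0.04 (limma adjusted p = 0.889) and with array weights -0.36. Of the other 5 peptide loading members each had a positive log2 change and 0 passed. Tap1, the first subunit of the peptide transporter, measured 7.74, 7.59 and 7.18 among wild-type animals against 7.75, 8.23 and 8.14 among mutants. The highest wild-type mouse and the lowest mutant were almost level, and the difference was 0.54 (SE 0.18, 95% interval 0.12 to 0.96, limma adjusted p = 0.372).

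Tap2, the second transporter subunit, measured 8.22, 8.04 and 8.23 among wild-type animals against 8.52, 8.60 and 8.31 among mutants, a difference of 0.31 (SE 0.11, limma adjusted p = 0.417) with no overlap. Tapbp, which encodes tapasin, the bridge between transporter and class I chain, read 10.46, 10.24 and 9.86 against 10.54, 10.78 and 10.73. Its difference was 0.49 (SE 0.16, 95% interval 0.12 to 0.87, limma adjusted p = 0.350), again with no overlap. Without wild-type mouse 3 the differences were 0.38 for Tap1 and 0.33 for Tapbp. The tapasin relative Tapbpl and the peptide-trimming enzyme gene Erap1 differed by 0.11 (SE 0.11) and 0.13 (SE 0.15). Tapbpl differed by 0.02 without wild-type mouse 3. With single mice left out Erap1 differed by 0.01 to 0.24.

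Class Ib genes, the nonclassical heavy chains of the Q, T and M regions, spanned both directions. Of 23 measured, 16 had a positive and 7 a negative log2 change, from -0.77 to 0.94 with a median of 0.15, and 9 lay below the 25th percentile of all genes. H2-T24 had the smallest p of all 52 members. It measured 6.38, 6.31 and 6.24 among wild-type animals against 6.92, 7.12 and 7.32 among mutants, with a gap between the groups wider than the range within either. Its difference was 0.81 (SE 0.12, 95% interval 0.53 to 1.09), or 1.75-fold, with a limma adjusted p of 0.101, and lay between 0.71 and 0.91 with single mice left out.

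H2-T23 encodes Qa-1, which is recognised by the inhibitory receptor CD94/NKG2A of natural killer cells. It measured 11.35, 11.57 and 10.62 among wild-type animals against 11.47, 12.27 and 12.03 among mutants, so mutant 1 overlapped with wild type, and differed by 0.74 (SE 0.28, limma adjusted p = 0.426) or by 0.46 without wild-type mouse 3. H2-T22, a ligand of gamma delta T cells, differed by 0.49 (SE 0.27), and by 0.20 when mutant 2 was left out. H2-T3, which encodes the thymus leukaemia antigen, read 4.16, 4.25 and 4.23 against 4.44, 4.42 and 4.38, a difference of 0.20 (SE 0.09, limma adjusted p = 0.480) at intensities below the 25th percentile.

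H2-T10, closely related to H2-T22 and annotated by RefSeq as a transcribed pseudogene, differed in the opposite direction. It measured 6.95, 7.36 and 6.76 among wild-type animals against 5.27, 6.11 and 5.58 among mutants, with no overlap. The difference was -1.37 (SE 0.23, 95% interval -1.91 to -0.83), 2.59-fold lower in the mutants (limma adjusted p = 0.121). With single mice left out it ran from -1.60 to -1.18, with adjusted p between 0.0553 and 0.351. Probes can be shared between near-identical H2 copies, so the split between H2-T10 and H2-T22 is uncertain at the level of the gene.

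In the Q region, H2-Q10, which encodes a secreted class I molecule known from mouse liver, measured 10.60, 10.59 and 10.32 among wild-type animals against 9.78, 9.79 and 10.16 among mutants. Every mutant lay below every wild-type mouse, and the difference was -0.59 (SE 0.14, 95% interval -0.92 to -0.27), 1.51-fold lower (limma adjusted p = 0.222). Probe sequences were not examined, so whether this probe set also reads related H2 transcripts was not tested. H2-Q2 read 6.91, 7.34 and 6.50 against 5.35, 6.47 and 6.61. Mutant 1 lay far below the wild-type range, mutant 2 just below it and mutant 3 inside it, and the difference of -0.77 (SE 0.35, limma adjusted p = 0.495) was -0.37 without mutant 1. H2-Q8 was chosen for description after its values were seen, because mice within 1 group differed. It measured 7.89, 8.23 and 9.37 among wild-type animals against 10.06, 10.12 and 8.13 among mutants, so wild-type mouse 3 and mutant 3 each lay nearer to the other group. Its difference was 0.94 (SE 0.57), and 1.60 without mutant 3, with a range of 0.60 to 1.60 over the mice left out in turn.

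H2-Q7 and H2-Q9 encode the Qa-2 antigen, and 2 of the 3 H2-Q7 probe sets had values identical to the H2-Q9 probe set. H2-Q7 read 5.87 in mutant 1 against 7.44 and 7.12 in mutants 2 and 3, and 6.90, 7.13 and 6.27 in wild type. The H2-Q7 difference of 0.05 (SE 0.40) and that of H2-Q9, 0.21 (SE 0.32), both changed direction when single mice were left out. H2-Q4 differed by 0.40 (SE 0.21), and by 0.17 without mutant 2 and 0.61 without mutant 3, H2-Q6 by 0.07 and H2-Q1 by -0.04.

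**Figure D3:**
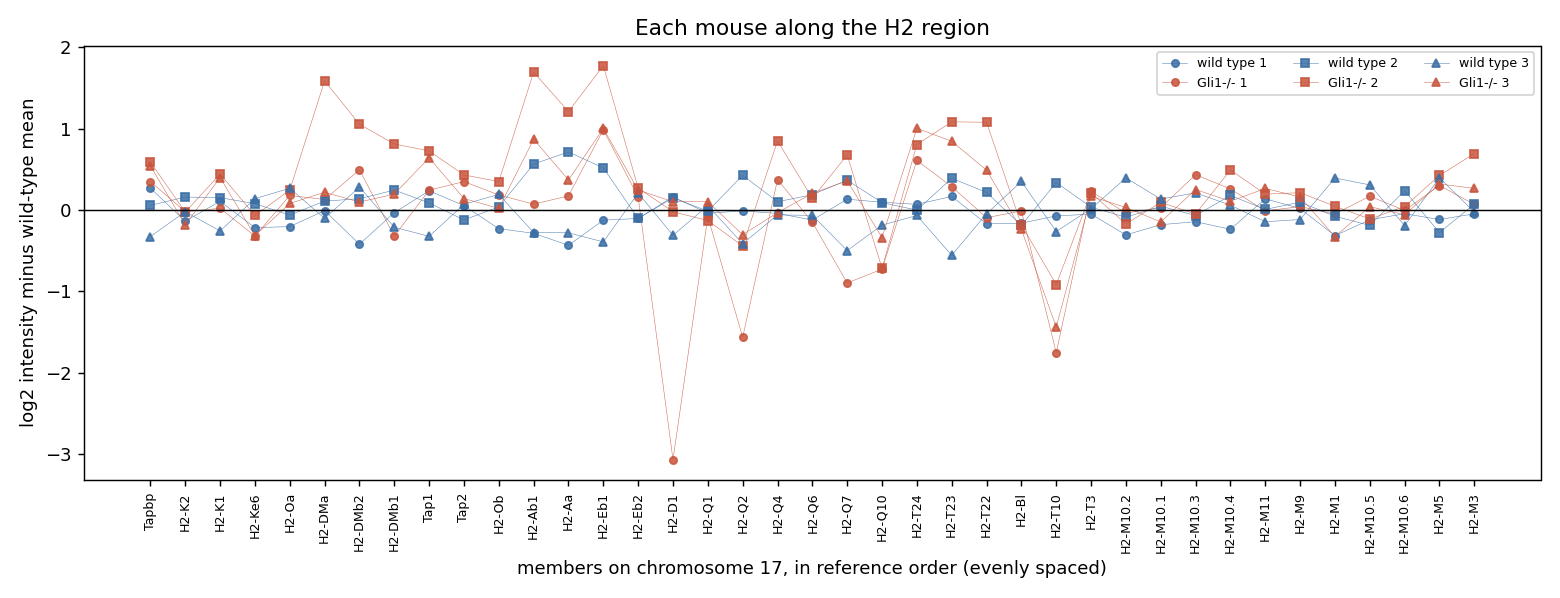
Log2 intensity of each mouse minus the wild-type mean (y axis) for 39 of the 41 members on chromosome 17, evenly spaced in reference order (x axis), wild type in blue and Gli1-/- in red. H2-Q9 and H2-Q8, which varied widely within both groups, are not drawn. H2-D1 in mutant 1 lies about 3 log2 units below the line, H2-T10 is below it in all 3 mutants, and most H2-M genes at the right lie near 0.

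In the M region the 6 H2-M10 genes, known for expression in the mouse vomeronasal organ, had log2 changes from -0.06 to 0.29 with a median of 0.01, and 5 of the 6 lay below the 25th percentile of all genes. The other 5 H2-M genes ranged from -0.11 to 0.35. Among these, H2-M3, which presents formylated bacterial peptides, differed by 0.34 (SE 0.16, limma adjusted p = 0.512), and by 0.17 without mutant 2. H2-M5 differed by 0.35 (SE 0.17), by 0.21 without wild-type mouse 2 and by 0.55 without wild-type mouse 3. The MHC-like molecules outside the complex had small negative differences. Cd1d1, which presents lipids to natural killer T cells, differed by -0.10 (SE 0.09). Mr1, which presents vitamin B metabolites to MAIT cells, differed by -0.06 (SE 0.11), and by 0.02 without mutant 1. The pseudogenes H2-Bl and H2-K2 differed by -0.14 and -0.08. H2-Ke6 carries an H2- symbol for its position but encodes a hydroxysteroid dehydrogenase. It differed by -0.23 (SE 0.13).

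Members varied more between mice of 1 group than genes did in general. Their median SD between replicates was 0.22, against 0.15 for all genes. Among the mutants, 16 of 52 members (30.8%) had a range within the widest 5% of all genes. The corresponding number among wild-type mice was 7 (13.5%). The 16 held the class II members H2-Aa, H2-Ab1, H2-Eb1, H2-DMa, H2-DMb1, H2-DMb2 and Cd74, as well as H2-D1 and 8 other H2 genes of the Q and T regions. Mutant 2 held the highest value of all 6 mice for 28 of the 52 members, and the other mice for 2 to 8 each. Wild-type mouse 1 held the lowest for 17, wild-type mouse 3 for 14 and mutant 1 for 11.

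Other steps of antigen processing were read from lists of known genes. All 5 genes of the immunoproteasome and its activator, which cut proteins into peptides for class I, had positive log2 changes, with a median of 0.31 and 0 of 5 passing over all genes. Psmb8, a catalytic subunit, differed by 0.46 (SE 0.25), and mutant 2 stood at 8.91 against 7.96 and 8.07 in mutants 1 and 3. In the endosomal route, 6 of 7 genes were positive with a median of 0.22, and 0 passed. Lgmn, the asparaginyl endopeptidase legumain, measured 9.85, 9.93 and 9.74 among wild-type animals against 10.56, 10.90 and 10.38 among mutants. Its difference was 0.78 (SE 0.14, limma adjusted p = 0.143) with no overlap. Ctss, the cathepsin that trims the invariant chain, differed by 0.89 (SE 0.30, limma adjusted p = 0.372) with overlapping groups. A list of 6 further endoplasmic reticulum genes, chaperones that help to fold or load class I chains and translocon subunits, was all negative, from -0.38 to -0.004 with a median of -0.10, and 0 passed. In it Pdia3 and Calr, partners of tapasin in the class I loading complex, were opposite in sign to Tap1, Tap2 and Tapbp. Pdia3 differed by -0.24 (SE 0.11, limma adjusted p = 0.509) with overlapping groups. Calr differed by -0.12 (SE 0.09, limma adjusted p = 0.711) with no overlap. Both were bright, at mean intensities of 12.65 and 12.77. The difference of B2m, also bright, moved from -0.23 to -0.04 with quantile normalization. That setting is not reported here for Pdia3 and Calr.

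Genes of the interferon gamma axis were all positive, 13 of 13 with a median of 0.25, and 0 passed over all genes. Cxcl9, a chemokine gene induced by interferon gamma, averaged 6.15 ± 0.13 in wild type and 6.76 ± 0.32 in Gli1-/- mice (SD, n = 3). The groups did not overlap, and the difference was 0.60 (SE 0.17, limma adjusted p = 0.282). Irf1, which acts on class I and Ciita promoters, differed by 0.25 (SE 0.12) with no overlap. The cytokine gene Ifng differed by 0.17 (SE 0.11) with overlapping groups. Of 6 genes listed under co-stimulation 4 were positive (median 0.27, 0 passing). Icosl (0.49), Cd80 (0.28) and Cd40 (0.27) had no overlap, as had 8.34% of all genes in that direction. The negative genes, Cd274 (-0.08) and Pdcd1lg2 (-0.03), encode inhibitory ligands. Cd80 and Icosl encode ligands of T cell receptors of co-stimulation, and Cd40 encodes the receptor for the T cell protein CD40L. Of 7 genes of the T cell side 5 were positive (median 0.14, 0 passing). Cd3g, a chain of the T cell receptor complex, differed by 0.78 (SE 0.25, limma adjusted p = 0.336). Of other chain genes of that complex, Cd3e differed by 0.29 (SE 0.11) and Cd3d by -0.07 (SE 0.10). The coreceptor gene Cd8a differed by 0.17 (SE 0.11) and Cd4 by -0.02 (SE 0.11).

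Markers of the cells that make class II molecules were read beside these genes, and their part in the class II differences was not tested. Of 9 macrophage markers 8 were positive and Mertk negative, with a median of 0.57 and 0 passing over all genes. The mean log2 level of that list ranged from 8.26 to 8.44 in wild type and from 8.64 to 8.95 in the mutants. Adgre1, the macrophage surface protein F4/80, read 7.86, 8.14 and 7.96 against 8.75, 9.02 and 8.46, and Ptprc, the pan-leukocyte protein CD45, 6.39, 6.69 and 6.48 against 7.03, 7.54 and 7.02. Both separated the groups (limma adjusted p = 0.189 and 0.225). Dendritic cell markers had a median of 0.09 with 5 of 8 positive. Their mean level ranged from 5.98 to 6.21 in wild type and from 6.23 to 6.34 in the mutants, and Itgax, which macrophages also express, differed by 0.67 (SE 0.20). B cell markers had a median of -0.02 with 3 of 7 positive, and their mean level was 5.20 to 5.35 in wild type and 5.31 to 5.35 in the mutants. Of the B cell markers 4 of 7 lay below the 25th percentile of all genes, of the dendritic cell markers 1 of 8 and of the macrophage markers 0 of 9.

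Per mouse, the class II score, the mean of the 10 genes after each was centred on its mean of the 6 mice, was -0.49, -0.03 and -0.33 among wild-type animals against 0.02, 0.75 and 0.08 among mutants. The macrophage score was -0.30, -0.12 and -0.30 among wild-type animals against 0.26, 0.39 and 0.08 among mutants. Wild-type mouse 2 was the highest of its group and mutant 2 of its own in both scores, while mutants 1 and 3 were in opposite order. Interferon gamma axis scores were -0.15, -0.13 and -0.17 among wild-type animals against 0.06, 0.20 and 0.20 among mutants. Skeletal muscle markers, which belong to tissue next to the gland, also differed between mice, with scores of -0.69, 0.05 and -0.32 among wild-type animals against 0.85, 0.44 and -0.32 among mutants. Luminal epithelium scores were 0.04, -0.12 and -0.17 among wild-type animals against 0.13, 0.06 and 0.05 among mutants, and endothelial scores 0.01, -0.17 and -0.18 against 0.23, -0.09 and 0.20. The part of these cell types in the class II and class I values was not tested.

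**Figure D4:**
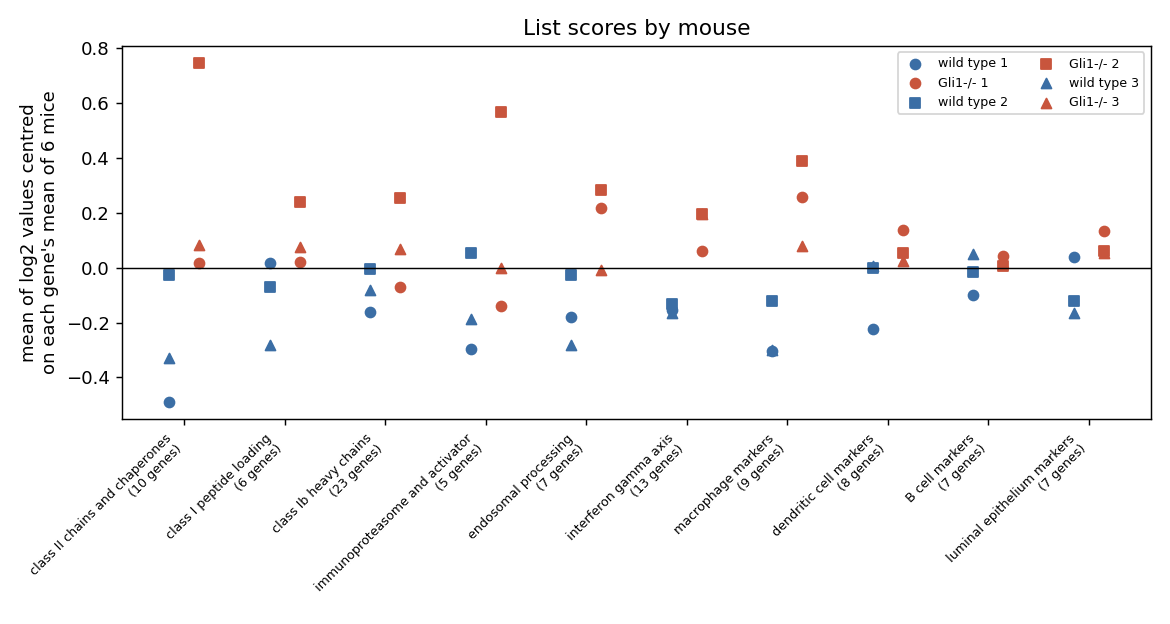
Scores of 10 gene lists (x axis, number of genes in brackets) in 3 wild-type (blue) and 3 Gli1-/- (red) mice, each the mean of log2 values centred on every gene's mean of the 6 mice (y axis). The class II score is highest in mutant 2 at 0.75, and the B cell markers stay between -0.10 and 0.05.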

How the data were processed

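Expression in 6 mouse prostates was measured on a 1-colour Affymetrix array. The authors deposited 1 log2 value per probe set and mouse. The submitters' processing notes list RMA and Partek, without version. No source used here gives the array model, the probe-set definition or a genome build. Of 32025 probe sets, 25343 (79.1%) matched 1 gene through RefSeq accessions of the GRCm38.p6 gene table, and a gene with several was represented by the brightest over the 6 samples, giving 20263 genes. Gli1-/- minus wild type was fitted with limma 3.58.1 (lmFit, eBayes, R 4.3.3) over all 6 samples, two-sided and without covariates, on values as deposited. P-values were adjusted by Benjamini-Hochberg over all genes, and the threshold was 0.05. The procedure was tested on simulated data. Errors are SDs over 3 mice or SEs of the fit, and the number of arrays limits the precision. The members, the gene lists and the tests were chosen with earlier results of these data known. Values in every mouse are given for 10 members named by role and for the 8 others with the smallest unadjusted p, as well as for H2-Q7 and H2-Q8, picked for their spread after their values were seen. From other lists, named genes are up to 3 with the smallest p and a few defining markers. Mertk, Ifng, Cd8a, Cd4, Cd3d, Cd274 and Pdcd1lg2 were named after their values were seen. Single values of some list genes are not reported here. Promoter sequences are RefSeq's, GRCm38.p6. The motif cores were shortened after a first search. Alternatives were a replicate block, a further quantile normalization, centring on sample medians, leaving out dim probe sets, limma's intensity trend with robust variances, weights per array, the mean of probe sets and leaving out each mouse.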

Additional observations from a re-analysis of the deposited data

How the results depend on the processing

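With single mice left out, 0 of 52 members passed, and the number of all genes passing was 3 to 17, against 4 with all mice. It was 17 without mutant 2 and 7 without wild-type mouse 2. The median log2 change of the members, 0.16 with all mice, was 0.10 to 0.19 there and 0.069 with array weights, where 31 were positive and 21 negative. The labels do not say whether the replicate numbers pair the mice. Deviations of same-numbered mice correlated at 0.162, 0.248 and -0.153, and those of differently numbered mice at -0.317 to 0.249. With 3 mice per group these values cannot decide it. With the number as a replicate block 25 genes passed, among them 2 members, H2-Eb1 and H2-T10. Median centring and the filter on dim probe sets gave 8 genes each and 0 members. Array weights gave 4680 of 20263 genes, 1948 higher and 2732 lower, and 15 of 52 members, 8 higher and 7 lower. With so many of all genes passing, no result about the members is read from this count. Among members described with values in every mouse, H2-T24, H2-Eb1, Tapbp, Tap1 and Tap2 were higher. H2-T10, H2-Q10, H2-Q2 and B2m were lower. The estimation of the weights stopped before convergence, with a weight of 7.22 for wild-type mouse 2 and 0.353 to 2.26 for the others. The cause was not tested. The direction was kept in all 13 alternatives by 35 members and changed in 17. With array weights the log2 change was -0.17 for H2-Aa, -0.0535 for H2-DMb1, 0.0631 for H2-M10.2, 0.0357 for H2-Q1, -0.0538 for H2-Q6, -0.22 for H2-Q7, -0.0418 for H2-Q9, -0.0023 for Rfxank and -0.0168 for Tapbpl. It was also 0.41 for H2-T23, 0.30 for H2-DMa, 0.18 for H2-K1, 0.13 for Ciita, 0.11 for Nlrc5 and 0.63 for H2-Q8 with these weights. With quantile normalization it was 0.0178 for H2-M10.1, 0.0174 for H2-M10.6 and -0.0049 for Rfxank, which was -0.0019 with median centring. With single mice left out the log2 change of H2-D1 ran from -1.55 to 0.0398, of H2-DMb1 from -0.0636 to 0.50, of H2-Q7 from -0.27 to 0.52, of H2-Q9 from -0.0415 to 0.55, of H2-Q6 from -0.0039 to 0.17 and of H2-Q1 from -0.11 to 0.0097. It ran from -0.24 to 0.0313 for H2-Bl, from -0.15 to 0.0031 for H2-K2, from -0.27 to 0.0873 for H2-M1, from -0.10 to 0.0621 for H2-M10.1, from -0.21 to 0.14 for H2-M10.2, from -0.0617 to 0.19 for H2-M10.5, from -0.10 to 0.11 for H2-M10.6, from -0.12 to 0.0232 for Mr1 and from -0.048 to 0.0748 for Rfxank. Members lower in all mutants kept numbered 4 to 6 with single mice left out and members higher in all mutants kept 9 to 18. These counts were added after the data were seen. With fewer mice more of all genes separate too, as the shares printed above for some of the higher counts show. The shares for the lower counts are not reported here, and no rise among members is read from these counts. No detection calls were used, so how far dim members stand above background is unknown.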
